A study of Mus musculus with 16 samples.

Results

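Cells induced toward a hair cell fate were compared with untreated embryoid bodies for 10 genes of the heart: the transcription factor genes Tbx20, Tbx5, Gata4, Hand1, Hand2 and Nkx2-5 and the sarcomere genes Myl7, Tnnt2, Myh6 and Myh7. The genes were chosen by name, with earlier results of these data known. Each was taken from the array table where its symbol stood alone for an entry (the entry with the highest mean, had there been several). All 10 were found, each with 1 entry, among 22180 genes with 1 symbol. RNA was hybridised to 16 Affymetrix Mouse Gene 2.1 ST arrays, and every value is a log2 RMA value, so a difference of 1 is a 2-fold difference in signal.

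All samples came from mouse embryonic stem cells of the line iGPA-Myo7a:mVenus, in which doxycycline (Dox) switches on the transgenes Gfi1, Pou4f3 and Atoh1 and a Myo7a reporter makes the fluorescent protein mVenus. They were cultured in serum as embryoid bodies (EBs), floating aggregates of differentiating stem cells. Induced hair cell-like cells (iHCs) were mVenus-positive cells sorted by flow cytometry from EBs treated from day 4. The groups were Dox plus retinoic acid (Dox+RA) iHCs at day 12 and at day 8, Dox iHCs at day 12 and at day 8 (3 arrays each), and control EBs at day 12 and at day 8 (2 arrays each). Control EBs were whole EBs that were neither treated nor sorted, so the treatment and the sort cannot be told apart in any comparison with them. All groups carry the inducible line's transgenes, the line is 1 line, and the labels give embryonic stem cell as the cell type of every sample, whatever its day. The submitters call the arrays of a group biological replicates. Nothing in the sources used here says that they came from separate cultures, and the p-values measure only the spread between these samples.

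The heart forms from lateral mesoderm under a set of transcription factors that act together: GATA and T-box factors, the homeodomain factor Nkx2-5 and the basic helix-loop-helix factors Hand1 and Hand2. These factors switch on the proteins of the cardiac sarcomere, the contractile unit of the muscle cell, among them myosin heavy and light chains and troponin. Embryoid bodies grown in serum commonly form mesoderm and patches of beating cardiac muscle, whereas hair cells of the inner ear come from ectoderm. Several of the factors have other known sites: Hand1 in extraembryonic mesoderm, Hand2 in sympathetic neurons and branchial arches, Gata4 in visceral endoderm, Tbx5 in the forelimb and Tbx20 in hindbrain motor neurons.

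Proximal promoters of 5 members are shown because results below turn on these genes: Tbx20, Tnnt2 and Hand2 were lower in iHCs at both days, and Myl7 and Myh7 fell between the 2 days in control EBs. Each line gives the 250 bases before a start site in RefSeq (GRCm38.p6), 5′ to 3′ on the gene's own strand. Capitals mark matches, on either strand, to the motifs searched, which were CANNTG (the E-box core of basic helix-loop-helix factors), GATAA (GATA factors), AAGTG (the NK2 core), AGGTGT (a T-box core), TATAAA, the CArG box and the MEF2 box.
Tbx20: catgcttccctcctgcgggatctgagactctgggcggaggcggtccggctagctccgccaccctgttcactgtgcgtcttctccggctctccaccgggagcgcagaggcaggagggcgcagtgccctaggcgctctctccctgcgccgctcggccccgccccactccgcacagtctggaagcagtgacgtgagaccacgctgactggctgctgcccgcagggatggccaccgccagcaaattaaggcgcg
Myl7: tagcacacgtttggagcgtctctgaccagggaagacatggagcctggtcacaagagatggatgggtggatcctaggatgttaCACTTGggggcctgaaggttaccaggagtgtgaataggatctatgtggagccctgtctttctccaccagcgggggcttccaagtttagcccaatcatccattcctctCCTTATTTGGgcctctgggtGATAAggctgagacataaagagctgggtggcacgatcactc
Myh7: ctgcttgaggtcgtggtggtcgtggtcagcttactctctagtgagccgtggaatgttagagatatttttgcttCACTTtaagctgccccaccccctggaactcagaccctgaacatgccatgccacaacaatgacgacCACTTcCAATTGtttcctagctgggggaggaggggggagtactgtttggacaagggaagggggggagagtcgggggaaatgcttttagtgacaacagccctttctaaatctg
Tnnt2: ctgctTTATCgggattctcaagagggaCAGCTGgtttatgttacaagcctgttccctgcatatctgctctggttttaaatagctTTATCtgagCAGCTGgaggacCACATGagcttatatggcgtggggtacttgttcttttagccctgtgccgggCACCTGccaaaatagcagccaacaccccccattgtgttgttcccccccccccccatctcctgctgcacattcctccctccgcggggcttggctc
Hand2: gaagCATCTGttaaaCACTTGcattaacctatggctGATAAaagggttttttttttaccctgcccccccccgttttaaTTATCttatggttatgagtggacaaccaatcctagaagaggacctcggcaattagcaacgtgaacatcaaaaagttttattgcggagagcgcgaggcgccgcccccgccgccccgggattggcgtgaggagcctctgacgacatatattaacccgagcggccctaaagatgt
The windows are chr9:24774304-24774553 (minus strand) for Tbx20, chr11:5898783-5899032 (minus strand) for Myl7, chr14:54994627-54994876 (minus strand) for Myh7, chr1:135836084-135836333 (plus strand) for Tnnt2 and chr8:57320733-57320982 (plus strand) for Hand2. Myh7 and Tnnt2 have a further start site in RefSeq, and the one listed as 1 is shown. The Myl7 window holds a CArG box from -61 to -52, a GATAA at -41 and an E-box at -168 whose bases overlap a match to AAGTG. The Tnnt2 window holds 4 E-boxes and 2 matches to GATAA, and the Hand2 window 2 E-boxes, 2 matches to GATAA and 1 to AAGTG, which overlaps an E-box. The Myh7 window holds 1 E-box and 2 matches to AAGTG, and the Tbx20 window 0 matches to any motif searched, which says only that these letters are not in it. Of all 32851 RefSeq windows of this length, 66.2% hold CANNTG, 22.6% GATAA, 40.7% AAGTG, 11.8% AGGTGT, 12.4% TATAAA, 1.47% a CArG box and 2.92% a MEF2 box. Of the members, 7 had an entry in the promoter table and Hand1, Tbx5 and Gata4 had none. A match describes these letters and is not a bound site.

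The arrays were alike in scale, with means from 5.03 to 5.09 and median signals over the genes tested from 5.14 to 5.25. Arrays of a group correlated at 0.982 to 0.995. All 11 genes of a hair cell list were higher in each of the 4 iHC groups than in control EBs of the same day, where 15.7% to 22.4% of all genes were called higher. The list means were 8.77 to 9.72 on the iHC arrays and 4.72 to 5.04 on the EB arrays. The iHCs were induced with the transgenes and sorted on a Myo7a reporter, so this checks the labels only and is not a separate result. No strip, scan date or other batch is given in the sources used here.

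All 10 cardiac genes were lower in iHCs than in control EBs at day 8, and 7 of the 10 were lower at day 12, whether or not RA was added. A gene is said to rise or fall where its limma p, adjusted over all genes by the method of Benjamini and Hochberg, was under 0.05. In Dox+RA iHCs the count was 7 lower and 0 higher at day 12, where 22.4% of all genes were called lower, and 10 lower and 0 higher at day 8, where 22% were. In Dox iHCs it was 7 lower and 0 higher at day 12 (21.7% of all genes called lower) and 10 lower and 0 higher at day 8 (18.9%). The 3 not called at day 12 were Myh6, Myh7 and Nkx2-5 in both treatments, of which Myh6 was called lower under 3 of its 24 alternatives. The median log2 difference of the 10 genes from control EBs was -2.16 in Dox+RA iHCs at day 12 and -2.56 at day 8, and in Dox iHCs it was -1.99 at day 12 and -2.38 at day 8. Over all genes the same medians lay between 0.02 and 0.07.

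The separation was visible array by array. For 8 of the 10 genes, all 12 iHC arrays lay below all 4 EB arrays, which was true of 16.1% of all genes; the exceptions were Myh7 and Nkx2-5. On the iHC arrays the 10 genes ran from 3.59 to 6.30, while over all genes and arrays 25% of the values were under 3.93 and 50% under 5.18. The table has no detection calls, so a low value is not evidence of absent RNA, and RMA compresses differences at low signal. The samples are bulk RNA, in which fewer cells of a type and less RNA per cell cannot be told apart.

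**Figure D1:**
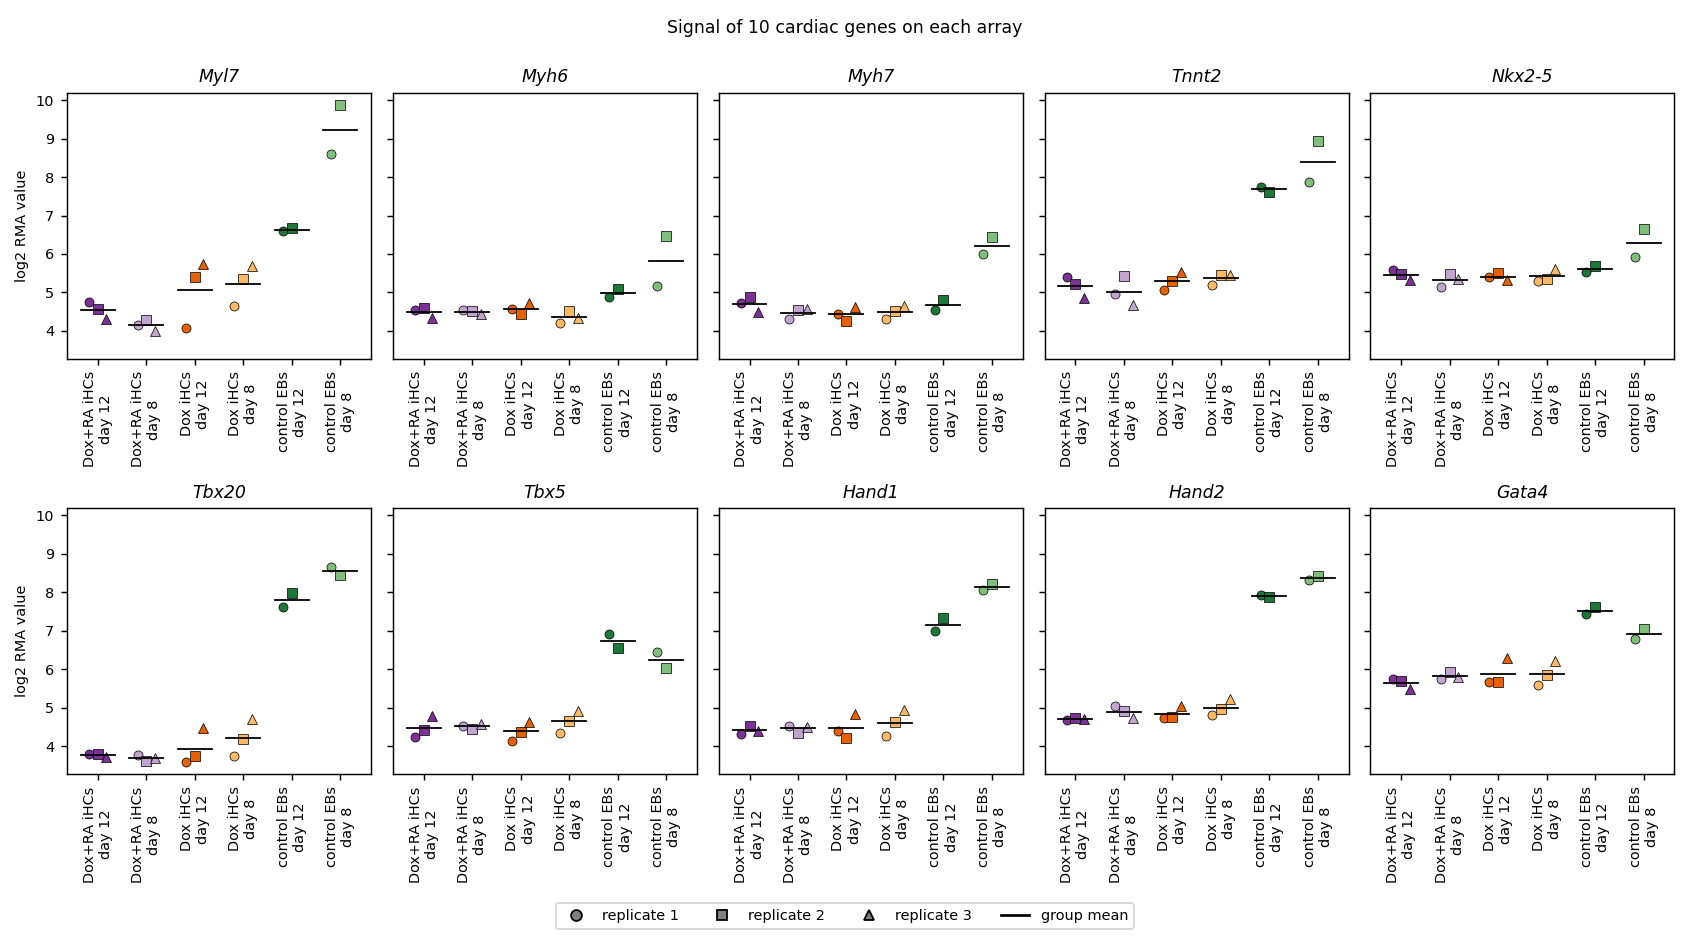
Log2 RMA value (vertical axes, one common scale) of each of the 10 cardiac genes on every array of the 6 groups; symbols give the replicate number and horizontal lines the group means. For every gene except Myh7 and Nkx2-5 the 12 iHC arrays lie below the 4 arrays of control EBs, and within the iHCs the groups mostly overlap.

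Of the 6 transcription factor members, Tbx20 had the largest differences from control EBs in all 4 comparisons (chr9:24720812-24774303). It is a T-box factor needed for growth of the heart chambers. Tbx20 measured 3.79, 3.81 and 3.71 in Dox+RA iHCs at day 12 and 3.77, 3.61 and 3.68 at day 8. In Dox iHCs it measured 3.59, 3.74 and 4.48 at day 12 and 3.74, 4.17 and 4.70 at day 8. The control EBs had 7.62 and 7.98 at day 12 and 8.66 and 8.45 at day 8. No iHC array came near an EB array, and the third replicate was the highest of the Dox iHCs at both days. Against control EBs of the same day the log2 difference was -4.03 ± 0.25 (SE, adjusted p = 6.42e-09, 16.3-fold lower) in Dox+RA iHCs at day 12 and -4.87 ± 0.25 (adjusted p = 1.33e-09, 29.3-fold lower) at day 8. The value in Dox iHCs was -3.86 ± 0.25 (adjusted p = 1.24e-08) at day 12 and -4.35 ± 0.25 (adjusted p = 6.47e-09) at day 8. Ordered by log2 difference from the lowest, Tbx20 stood at place 6 of 22180 genes at day 8 in each treatment, at place 55 at day 12 in Dox+RA iHCs and at place 57 at day 12 in Dox iHCs.

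Hand2 and Hand1 are related basic helix-loop-helix factors; in the mouse embryo Hand2 is needed for the right ventricle and Hand1 for the left ventricle and the extraembryonic membranes. Hand2 (chr8:57320983-57324517, just downstream of the window printed above) measured 4.68, 4.74 and 4.70 in Dox+RA iHCs at day 12 and 5.03, 4.90 and 4.73 at day 8. In Dox iHCs it measured 4.74, 4.76 and 5.04 at day 12 and 4.81, 4.96 and 5.22 at day 8, against 7.92 and 7.87 in control EBs at day 12 and 8.33 and 8.41 at day 8. The replicates of Hand2 were tight in every group, and its standard error was the smallest of the 10 genes. Its log2 difference from control EBs was -3.19 ± 0.13 (adjusted p = 7.96e-11) in Dox+RA iHCs at day 12, -3.48 ± 0.13 (adjusted p = 4.75e-11) at day 8, and in Dox iHCs -3.05 ± 0.13 (adjusted p = 1.41e-10) at day 12 and -3.38 ± 0.13 (adjusted p = 7.60e-11) at day 8.

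Hand1 (chr11:57828713-57832147) measured 4.31, 4.52 and 4.40 in Dox+RA iHCs at day 12 and 4.53, 4.34 and 4.51 at day 8. Dox iHCs had 4.40, 4.21 and 4.83 at day 12 and 4.25, 4.64 and 4.94 at day 8, against 6.98 and 7.32 in control EBs at day 12 and 8.06 and 8.23 at day 8. The 4 iHC groups overlapped, and the control EBs of day 8 lay above those of day 12. The log2 difference from control EBs was -2.74 ± 0.19 (adjusted p = 2.13e-08) in Dox+RA iHCs at day 12 and -3.68 ± 0.19 (adjusted p = 1.50e-09) at day 8. It was -2.67 ± 0.19 (adjusted p = 3.32e-08) in Dox iHCs at day 12 and -3.53 ± 0.19 (adjusted p = 3.54e-09) at day 8.

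Tbx5 and Gata4 were the members whose control EBs measured more at day 12 than at day 8, although the test called neither difference, and their gap to the iHCs was the wider one at day 12. Tbx5 (chr5:119796514-119885220), a T-box factor of the heart and forelimb, measured 4.24, 4.42 and 4.79 in Dox+RA iHCs at day 12 and 4.53, 4.44 and 4.59 at day 8. Dox iHCs had 4.14, 4.36 and 4.63 at day 12 and 4.35, 4.66 and 4.92 at day 8, against 6.91 and 6.54 in control EBs at day 12 and 6.46 and 6.04 at day 8. No iHC array reached the EB arrays, and the log2 difference in Dox+RA iHCs was -2.24 ± 0.20 (adjusted p = 2.49e-07) at day 12 and -1.73 ± 0.20 (adjusted p = 4.17e-06) at day 8. In Dox iHCs Tbx5 differed by -2.34 ± 0.20 on the log2 scale at day 12 (adjusted p = 1.88e-07) and by -1.61 ± 0.20 at day 8 (adjusted p = 1.37e-05).

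Gata4 (chr14:63198914-63271712), a zinc finger factor of early heart and endoderm, measured 5.75, 5.70 and 5.48 in Dox+RA iHCs at day 12 and 5.73, 5.93 and 5.80 at day 8. Dox iHCs had 5.67, 5.67 and 6.30 at day 12 and 5.59, 5.85 and 6.21 at day 8, against 7.44 and 7.61 in control EBs at day 12 and 6.79 and 7.04 at day 8. The closest arrays of the sorted and unsorted cells were the third replicates of the Dox iHCs and the control EBs of day 8. The log2 difference was -1.88 ± 0.19 (adjusted p = 1.12e-06) in Dox+RA iHCs at day 12 and -1.09 ± 0.19 (adjusted p = 0.000265) at day 8, and in Dox iHCs -1.64 ± 0.19 (adjusted p = 5.26e-06) at day 12 and -1.03 ± 0.19 (adjusted p = 0.000596) at day 8.

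Nkx2-5 (chr17:26838664-26844988), the homeodomain factor used as an early marker of cardiac precursors, had the smallest difference of the 10 at day 8 in each treatment. It measured 5.57, 5.48 and 5.32 in Dox+RA iHCs at day 12 and 5.15, 5.49 and 5.34 at day 8. Dox iHCs had 5.41, 5.51 and 5.32 at day 12 and 5.30, 5.35 and 5.62 at day 8, against 5.54 and 5.70 in control EBs at day 12 and 5.92 and 6.66 at day 8. At day 8 the iHC and EB arrays were apart, whereas at day 12 an EB array lay within the range of the Dox+RA iHCs. The log2 difference at day 8 was -0.96 ± 0.18 (adjusted p = 0.000382) in Dox+RA iHCs and -0.86 ± 0.18 (adjusted p = 0.00125) in Dox iHCs. At day 12 it was -0.16 in Dox+RA iHCs, with a 95% interval from -0.54 to 0.21 (adjusted p = 0.486), and -0.21 in Dox iHCs, with an interval from -0.59 to 0.17 (adjusted p = 0.390).

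Myl7 had the widest range of the sarcomere genes. It encodes the atrial regulatory myosin light chain, which the early heart tube makes throughout its length (chr11:5896637-5898782). Myl7 measured 4.75, 4.56 and 4.31 in Dox+RA iHCs at day 12 and 4.14, 4.29 and 3.99 at day 8. Dox iHCs gave 4.07, 5.40 and 5.75 at day 12 and 4.65, 5.34 and 5.68 at day 8. The control EBs had 6.59 and 6.67 at day 12 and 8.60 and 9.87 at day 8. All iHC arrays were below all EB arrays, and the first replicate of the Dox iHCs lay well under the other two at both days.

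Against control EBs the log2 difference of Myl7 was -2.09 ± 0.43 (adjusted p = 0.000840) in Dox+RA iHCs at day 12 and -5.09 ± 0.43 (adjusted p = 1.61e-07, 34.1-fold lower) at day 8. In Dox iHCs it was -1.56 ± 0.43 (adjusted p = 0.00787) at day 12 and -4.01 ± 0.43 (adjusted p = 2.99e-06, 16.1-fold lower) at day 8. The day 12 call in Dox iHCs was lost without the second control EB array of day 12 (log2 difference -1.51, adjusted p = 0.0534). From the lowest, Myl7 stood at place 4 of all genes in Dox+RA iHCs at day 8 but at place 694 at day 12, and in Dox iHCs at place 14 at day 8 and 1029 at day 12.

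Tnnt2 (chr1:135836315-135852268) encodes cardiac troponin T, which ties the troponin complex to tropomyosin on the thin filament. It measured 5.40, 5.23 and 4.87 in Dox+RA iHCs at day 12 and 4.97, 5.42 and 4.67 at day 8. Dox iHCs had 5.05, 5.29 and 5.53 at day 12 and 5.19, 5.45 and 5.44 at day 8, against 7.74 and 7.62 in control EBs at day 12 and 7.87 and 8.93 at day 8. Every iHC array lay far below every EB array. Unlike Myl7, Tnnt2 was still high in control EBs at day 12, and its log2 difference was -2.52 ± 0.27 (adjusted p = 1.64e-06, 5.72-fold lower) in Dox+RA iHCs at day 12 and -3.38 ± 0.27 (adjusted p = 9.35e-08, 10.4-fold lower) at day 8. In Dox iHCs it was -2.39 ± 0.27 (adjusted p = 3.26e-06) at day 12 and -3.04 ± 0.27 (adjusted p = 4.61e-07) at day 8.

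Myh6 and Myh7 encode the alpha and beta cardiac myosin heavy chains and lie next to each other on chromosome 14 (chr14:54941921-54968017 and chr14:54970684-54994626). They are close in sequence, and how far the probes of one take up RNA of the other was not tested. Myh6 measured 4.54, 4.59 and 4.33 in Dox+RA iHCs at day 12 and 4.54, 4.51 and 4.43 at day 8. Dox iHCs had 4.58, 4.43 and 4.73 at day 12 and 4.20, 4.53 and 4.34 at day 8, against 4.88 and 5.09 in control EBs at day 12 and 5.17 and 6.48 at day 8. The EB arrays of day 8 disagreed with each other more than any group of iHCs did. The log2 difference of Myh6 at day 8 was -1.33 ± 0.25 (adjusted p = 0.000474) in Dox+RA iHCs and -1.47 ± 0.25 (adjusted p = 0.000274) in Dox iHCs. At day 12 it was -0.49, with a 95% interval from -1.03 to 0.04 (adjusted p = 0.127), in Dox+RA iHCs and -0.40, from -0.94 to 0.13 (adjusted p = 0.234), in Dox iHCs. The day 12 arrays of Myh6 did not overlap those of the EBs in either treatment. It was called lower at day 12 in a fit of the groups compared alone (adjusted p = 0.0127 in Dox+RA iHCs and 0.0494 in Dox iHCs) and without either EB array of day 8 (adjusted p = 0.00469 and 0.0174).

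Myh7, the myosin of the embryonic mouse ventricle, measured 4.71, 4.88 and 4.49 in Dox+RA iHCs at day 12 and 4.30, 4.55 and 4.57 at day 8. Dox iHCs had 4.44, 4.27 and 4.61 at day 12 and 4.30, 4.52 and 4.64 at day 8, against 4.55 and 4.80 in control EBs at day 12 and 5.99 and 6.45 at day 8. Only the control EBs of day 8 stood above the rest, and at day 12 the EB arrays fell inside the range of the iHCs. The log2 difference at day 8 was -1.74 ± 0.16 (adjusted p = 5.19e-07) in Dox+RA iHCs and -1.73 ± 0.16 (adjusted p = 9.09e-07) in Dox iHCs. At day 12 it was 0.02, with a 95% interval from -0.32 to 0.37 (adjusted p = 0.918), in Dox+RA iHCs and -0.23, from -0.58 to 0.12 (adjusted p = 0.297), in Dox iHCs.

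**Figure D2:**
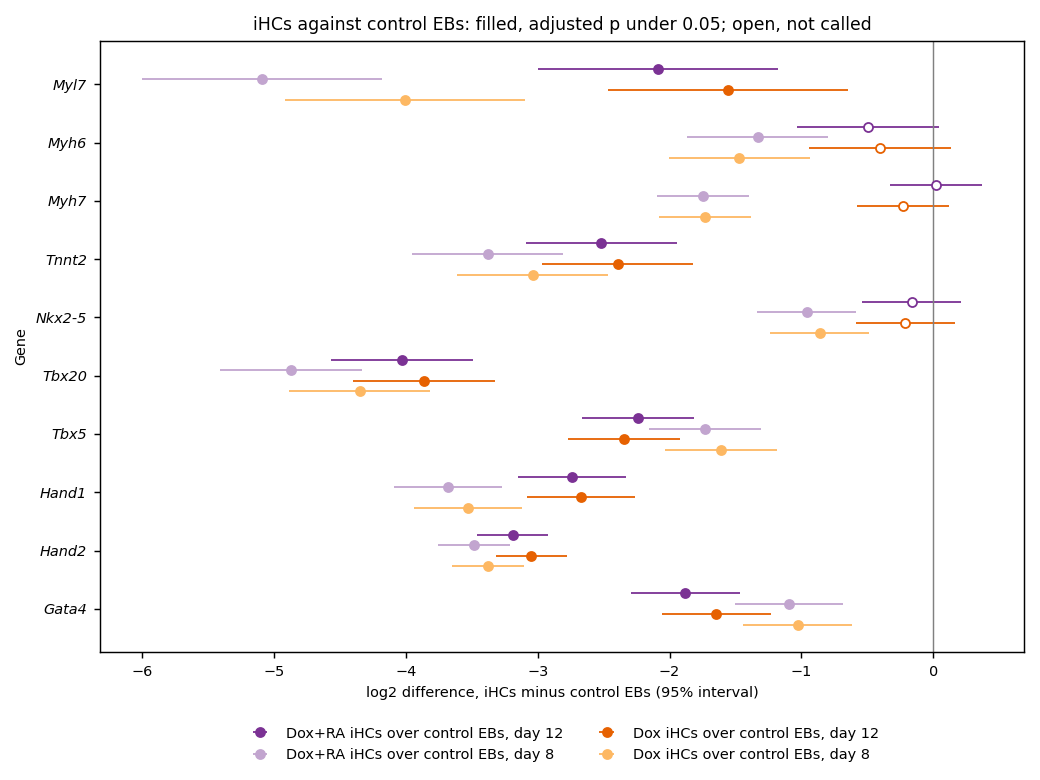
Log2 difference between iHCs and control EBs of the same day (horizontal axis, iHCs minus EBs) for each cardiac gene, with 95% intervals; filled points passed an adjusted p of 0.05. Tbx20 lies furthest left at day 12 and Myl7 in Dox+RA iHCs furthest left at day 8 (-5.09), and the open points are Myh6, Myh7 and Nkx2-5 at day 12.

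In control EBs themselves, 3 of the 10 genes fell between the days: Myl7, Myh7 and Hand1 were lower at day 12 than at day 8, and 0 were called higher (1.42% of all genes were called lower and 2.33% higher). Myl7 differed by -2.60 ± 0.47 on the log2 scale (adjusted p = 0.00425, 6.08-fold), Myh7 by -1.55 ± 0.18 (adjusted p = 0.000112, 2.92-fold) and Hand1 by -0.99 ± 0.21 (adjusted p = 0.0144). The day 12 and day 8 arrays did not overlap for any of the 10 genes, 8 of them lower at day 12 and Tbx5 and Gata4 higher. With 2 arrays a day this was true of many genes: 22.1% of all genes lay wholly below and 23.4% wholly above. The log2 differences of the 7 genes not called ran from -0.84 for Myh6 (adjusted p = 0.131) to 0.61 for Gata4 (adjusted p = 0.164), and the median of the 10 was -0.74.

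The 2 control EB arrays of day 8 differed for the contractile genes. The second was above the first for 8 of the 10 members, by 1.30 for Myh6, 1.27 for Myl7, 1.06 for Tnnt2 and 0.74 for Nkx2-5, and below it for Tbx20 and Tbx5. Among 25 other sarcomere genes it was higher for 21, with a median gap of 0.39, while over all genes it was higher for 49.8%. Markers of other cell types went both ways. The second array was higher for 1 of 11 mesenchyme and neural crest genes (median gap -0.27) and for 1 of 9 epicardium and mesothelium genes (median gap -0.18). It was higher for 4 of 15 skeletal muscle genes (-0.09). But it was also higher for 10 of 14 yolk sac and endoderm genes (0.11), 8 of 12 endothelium and blood genes (0.05) and 6 of 9 smooth muscle genes (0.04). Of 19 further cardiac transcription factor genes the second array was higher for 11 (median gap 0.04). Of 15 cardiac membrane, calcium and secreted factor genes it was higher for 9 (0.16). Single factors went both ways: the muscle methyltransferase gene Smyd1 measured 5.01 on the first array and 6.21 on the second. Zfpm2, a cofactor of GATA factors, measured 8.56 on the first array and 7.59 on the second. The part of other cell types in the gap was not tested. Without the second array the fall of Myl7 in control EBs was -1.97 (adjusted p = 0.0962) and that of Hand1 -0.90 (adjusted p = 0.160), and neither was called. Without the first array 6 of the 10 genes were called lower at day 12. Hand1 also lost its call without the first EB array of day 12 (-0.82, adjusted p = 0.194). Myh7 kept its call under all 25 alternatives, with adjusted p from 4.50e-05 to 0.00740.

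None of the 10 genes was called between the days within the iHCs (limma; 4.38% of all genes were called in Dox+RA iHCs and 8.05% in Dox iHCs, and 0 members had an unadjusted p under 0.05 in either). The change in iHCs was therefore compared with that in control EBs as a difference of differences, day 12 minus day 8 in iHCs minus the same in EBs. It was 3.01 ± 0.60 for Myl7 (adjusted p = 0.0142) and 1.77 ± 0.23 for Myh7 (adjusted p = 0.000671) with Dox+RA iHCs, where 0.956% of all genes were called higher. With Dox iHCs it was 2.45 ± 0.60 for Myl7 (adjusted p = 0.0418) and 1.50 ± 0.23 for Myh7 (adjusted p = 0.00241), where 1.03% were. The other 8 genes were not called in either. Both contrasts use the same 4 EB arrays. At day 8 Myl7 and Myh7 already averaged less in each iHC group than in control EBs at day 12. Whether such low signal left room for a further fall was not tested.

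For Myl7 the difference of differences depended on single arrays. With Dox+RA iHCs its call was lost without the first EB array of day 12 (2.97, adjusted p = 0.0678) and without the second of day 8 (2.37, adjusted p = 0.0972). With Dox iHCs it was lost in 14 of 25 alternatives, 11 of which left out 1 array, with adjusted p up to 0.219 without the second EB array of day 8. Those arrays were the first EB array of day 12 (2.41, adjusted p = 0.149), both second EB arrays (2.49, adjusted p = 0.110, at day 12 and 1.82 at day 8), the second Dox iHC array at day 12 (2.29, adjusted p = 0.0952), the first and second Dox iHC arrays at day 8 (adjusted p = 0.0693 and 0.0772) and 5 Dox+RA iHC arrays (adjusted p from 0.0528 to 0.0621). Hand1 was not called, at 0.94 ± 0.27 (adjusted p = 0.0924) with Dox+RA iHCs and 0.86 ± 0.27 (adjusted p = 0.120) with Dox iHCs, but was called with the replicate number as a block (adjusted p = 0.0276 and 0.0383).

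**Figure D3:**
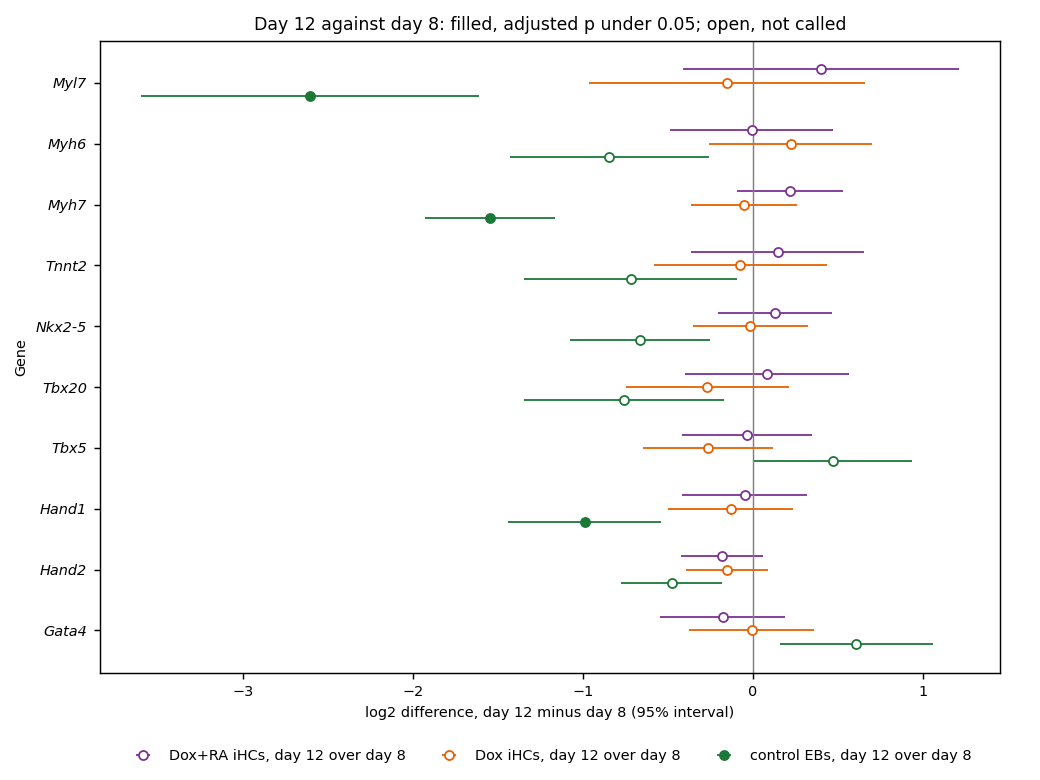
Log2 difference between day 12 and day 8 (horizontal axis, day 12 minus day 8) within Dox+RA iHCs, Dox iHCs and control EBs, with 95% intervals; filled points passed an adjusted p of 0.05. The only filled points are control EBs, for Myl7 (-2.60), Myh7 (-1.55) and Hand1 (-0.99), while the iHC points lie near 0.

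Adding RA to Dox changed none of the 10 genes at either day by the limma test (0.924% of all genes were called at day 12 and 4.93% at day 8; 0 members at day 12 and 2 at day 8, Myl7 and Tbx20, had an unadjusted p under 0.05). The nearest was Myl7 at day 8, where the Dox+RA arrays all lay below the Dox arrays: the log2 difference, Dox+RA minus Dox, was -1.08 ± 0.38 (adjusted p = 0.123), and with the replicate number as a block, which in the iHCs marks arrays that vary together, it was called (adjusted p = 0.0431). It was also called without the first Dox iHC array of day 12 (adjusted p = 0.0387). Tbx20 at day 8 differed by -0.52 ± 0.22 (adjusted p = 0.223). The other day 8 differences ran from -0.34 for Tnnt2 (95% interval -0.85 to 0.17) to 0.14 for Myh6 (-0.34 to 0.62), and those of day 12 from -0.53 for Myl7 (-1.34 to 0.28) to 0.26 for Myh7 (-0.06 to 0.57). No difference in the RA effect between the days was called for any member (0 called, 0.00902% of all genes called, 0 members with an unadjusted p under 0.05). The intervals were wide: for Myl7 the RA effect at day 12 minus that at day 8 was 0.55, with a 95% interval from -0.60 to 1.70.

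Over the 10 genes, the third replicate of the Dox iHCs had the highest mean signal of its group at both days. It was the highest of 3 arrays for 9 of the 10 genes at day 12 and for 8 at day 8, where over all genes the third replicate was highest for 38.4% and 39.4%. Its mean deviation from the group means over the 10 genes was 0.29 at day 12 and 0.25 at day 8. The 25 other sarcomere genes did not follow at day 8, where 7 were highest on it and 15 on the first replicate. Their day 8 list mean was 5.71 on it, against 5.99 and 5.86 in the other arrays. At day 12, 12 of them were highest on it and 10 on the first replicate. The 19 further cardiac transcription factor genes leaned the same way as the 10 genes. At day 12, 11 of the 19 were highest on the third replicate, 5 on the first and 3 on the second. At day 8, 9 were highest on the third replicate, 4 on the first and 6 on the second. Cardiac membrane, calcium and secreted factor genes were highest on the third replicate for 7 of 15 at day 12 and 6 of 15 at day 8. Markers of yolk sac and endoderm moved with the 10 genes. The third replicate was highest for 12 of 14 at day 12 and 13 of 14 at day 8. Their list means on it were 5.95 at day 12 (4.99 and 5.15 in the other arrays) and 5.89 at day 8 (5.12 and 5.36). Epicardium and mesothelium genes were highest on it for 7 of 9 at day 12 and 8 of 9 at day 8, and mesenchyme and neural crest genes for 9 of 11 and 6 of 11. The mesenchyme and neural crest means were 5.25 at day 12 (4.70 and 4.69 in the other two) and 5.19 at day 8 (4.83 and 4.96). Hair cell markers had their lowest means on it, at 9.14 at day 12 (9.52 and 9.34) and 8.77 at day 8 (9.27 and 8.83). So did endothelium and blood genes, at 4.75 at day 12 (4.86 and 5.11) and 5.18 at day 8 (5.52 and 5.67). The part of other cell types in the cardiac signal was not tested. Left out at both days, a choice made after seeing the data, it left the counts against control EBs at 7 and 10 members in each treatment.

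Other genes of the heart did not all follow the 10. Of 19 further cardiac transcription factor genes, 11 fell and 2 rose in Dox+RA iHCs at each day, and 8 fell and 2 rose in Dox iHCs at each day. Of all genes, 18.9% to 22.4% were called lower and 15.7% to 22.4% higher, so the 2 that rose are a smaller share than among all genes. The median log2 difference was -0.77 in Dox+RA iHCs at day 12 and -0.60 at day 8, and in Dox iHCs -0.22 at day 12 and -0.14 at day 8. Gata6, a GATA factor of heart and endoderm, measured 5.44 to 6.26 in Dox+RA iHCs at day 12, against 10.22 and 10.23 in control EBs, a log2 difference of -4.46 ± 0.39 (adjusted p = 2.02e-07). Zfpm2, the cofactor of GATA factors also known as FOG2, differed by -4.06 ± 0.24 at day 12 and -3.02 ± 0.24 at day 8 in Dox+RA iHCs, and by -4.01 ± 0.24 at day 12 and -2.79 ± 0.24 at day 8 in Dox iHCs. Both fell in all 4 comparisons, as Tbx20, Tbx5, Hand1, Hand2 and Gata4 did.

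Isl1, which marks cardiac precursors and is also known from sensory and motor neurons and the inner ear, went both ways. It measured 5.61 to 6.95 in Dox+RA iHCs at day 12 and 8.21 to 8.88 at day 8, and in Dox iHCs 7.55 to 8.47 at day 12 and 9.72 to 10.24 at day 8. Control EBs had 7.47 and 7.93 at day 12 and 7.37 and 7.72 at day 8. In Dox+RA iHCs it was lower than in control EBs at day 12 (-1.39 ± 0.34, adjusted p = 0.00356) and higher at day 8 (1.08 ± 0.34, adjusted p = 0.0182), and in Dox iHCs it was higher at day 8 (2.41 ± 0.34, adjusted p = 4.77e-05). With RA it was lower than with Dox alone at day 12 (-1.77 ± 0.30, adjusted p = 0.0116) and at day 8 (-1.33 ± 0.30, adjusted p = 0.0214), as was Mef2c, a MADS-box factor of muscle (-1.47 ± 0.31, adjusted p = 0.0387, at day 12 and -1.52 ± 0.31, adjusted p = 0.0127, at day 8). Of the 19 further cardiac transcription factor genes, RA lowered 2 and raised 1 at day 12, where 0.924% of all genes were called. At day 8 it lowered 4 and raised 1, where 4.93% of all genes were called.

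The 25 other sarcomere genes were divided, with medians near 0. In Dox+RA iHCs 9 rose and 4 fell at day 12, where 22.4% of all genes were called higher and 22.4% lower. At day 8, 7 rose and 6 fell (19.6% of all genes called higher and 22% lower). In Dox iHCs 9 rose and 2 fell at day 12 (19.2% higher and 21.7% lower) and 5 rose and 4 fell at day 8 (15.7% higher and 18.9% lower). The shares that fell lie near or below those of all genes. The median was 0.02 in Dox+RA iHCs at day 12 and -0.05 at day 8, and in Dox iHCs 0.12 at day 12 and -0.11 at day 8. Des, the muscle intermediate filament desmin, measured 9.06 to 9.39 in Dox+RA iHCs at day 12, against 6.38 and 7.10 in control EBs, and rose by 2.51 ± 0.20 (adjusted p = 6.10e-08). Unc45b, a chaperone that folds muscle myosin, rose by 2.49 ± 0.22 in Dox+RA iHCs and by 3.03 ± 0.22 in Dox iHCs at day 12.

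Myl3, the essential myosin light chain of the ventricle and of slow muscle, stood opposite to Myl7. It measured 6.80 to 7.17 in Dox+RA iHCs at day 12 and 7.23 to 8.16 at day 8, and in Dox iHCs 6.16 to 6.80 at day 12 and 6.38 to 6.84 at day 8, against 3.94 and 4.73 in control EBs at day 12 and 4.76 and 5.92 at day 8. All iHC arrays were above all EB arrays. Its log2 difference was 2.68 ± 0.33 (adjusted p = 7.54e-06) in Dox+RA iHCs at day 12 and 2.38 ± 0.33 (adjusted p = 2.79e-05) at day 8, and in Dox iHCs 2.14 ± 0.33 (adjusted p = 7.88e-05) at day 12 and 1.26 ± 0.33 (adjusted p = 0.00715) at day 8. Ttn, the giant spring protein titin, followed the members at day 8: it differed by -2.23 ± 0.35 (adjusted p = 9.51e-05) in Dox+RA iHCs and by -1.25 ± 0.35 (adjusted p = 0.0117) in Dox iHCs, whose arrays overlapped those of the EBs.

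In control EBs over time the pattern of Myl7 and Myh7 was shared by 3 of the 25 sarcomere genes, called lower at day 12, with 0 called higher. They were Ttn (-2.01 ± 0.39, adjusted p = 0.00699), the cardiac alpha actin gene Actc1 (-1.86 ± 0.37, adjusted p = 0.00932) and Myom1, a protein of the M-band (-1.34 ± 0.29, adjusted p = 0.0177). Of the 19 further cardiac transcription factor genes, 1 fell and 2 rose. Over all genes, 1.42% were called lower and 2.33% higher in this comparison. Smyd1, a muscle methyltransferase needed for heart formation, fell (-1.48 ± 0.26, adjusted p = 0.00395), while the T-box factor gene Tbx2 (0.73 ± 0.17, adjusted p = 0.0243) and the homeobox gene Meis2 (0.62 ± 0.16, adjusted p = 0.0436) rose. The second EB array of day 8 was the higher one for each of the 4 genes that fell.

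Of 15 cardiac membrane, calcium and secreted factor genes, 3 to 5 fell and 2 or 3 rose in each comparison of iHCs with control EBs. Of all genes, 18.9% to 22.4% were called lower and 15.7% to 22.4% higher in these comparisons. The shares of the list that rose lie near those of all genes, and the shares that fell lie near or above them. Gja1, a gap junction protein that many cell types make, fell most: it measured 4.75 to 4.82 in Dox+RA iHCs at day 12 and 5.22 to 6.63 in Dox iHCs at day 12, against 8.62 and 8.74 in control EBs. Its log2 difference was -3.89 ± 0.39 (adjusted p = 8.92e-07) in Dox+RA iHCs and -2.62 ± 0.39 (adjusted p = 5.75e-05) in Dox iHCs. Nppa, the atrial natriuretic peptide gene, rose in all 4 comparisons, by 1.42 ± 0.20 at day 12 and 1.44 ± 0.20 at day 8 in Dox+RA iHCs and by 1.44 ± 0.20 at day 12 and 0.97 ± 0.20 at day 8 in Dox iHCs. Its iHC values, 6.16 to 7.04, were all above those of the control EBs, 5.07 to 5.59.

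**Figure D4:**
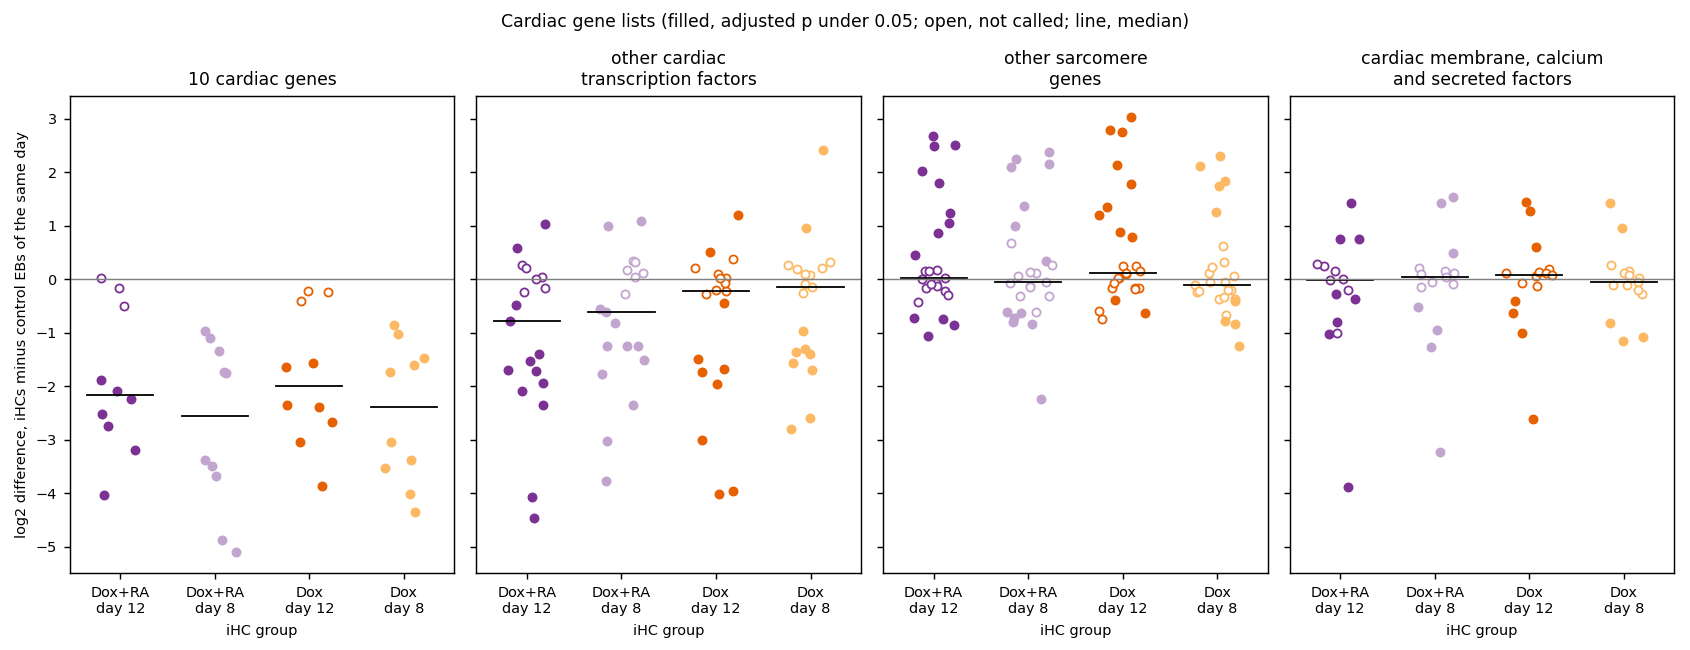
Log2 difference between iHCs and control EBs of the same day (vertical axis) for the 10 cardiac genes and for lists of other cardiac transcription factors, other sarcomere genes and cardiac membrane, calcium and secreted factors; each point is a gene, filled where its adjusted p was under 0.05, and lines are medians. The 10 genes have medians from -2.56 to -1.99, while the medians of the other sarcomere genes lie between -0.11 and 0.12.

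Markers of other cell types that an EB can hold fell beside the cardiac genes, and their part in the cardiac differences was not tested. Of 11 mesenchyme and neural crest genes 10 fell and 1 rose in every comparison of iHCs with control EBs, with list means of 4.63 to 5.25 on the iHC arrays and 8.22 to 8.85 on the EB arrays. Of 14 yolk sac and endoderm genes, 9 to 12 fell and 0 rose, with list means of 4.99 to 5.95 on the iHC arrays and 6.90 to 7.50 on the EB arrays. Endothelium and blood genes fell in 8 of 12 at day 12 and in 12 of 12 at day 8 in each treatment, and 8 of the 12 were also lower at day 12 than at day 8 in control EBs, as Myl7, Myh7 and Hand1 were. Of 9 epicardium and mesothelium genes, 5 to 8 fell and 0 or 1 rose. Gata6 is in the yolk sac and endoderm list and Tbx18 in the epicardium and mesothelium list, and both are also counted among the cardiac transcription factor genes. Of all genes, 18.9% to 22.4% were called lower in the comparisons with control EBs, and 1.42% between the days in control EBs. Of 15 skeletal muscle genes 2 to 4 rose, a share near the 15.7% to 22.4% of all genes called higher, and 0 fell, with list means of 4.80 to 5.08 on the iHC arrays and 4.59 to 4.68 on the EB arrays; the largest of these differences was that of Ckm, muscle creatine kinase (3.03 ± 0.48, adjusted p = 9.12e-05, in Dox+RA iHCs at day 12).

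The genes whose 6 group means followed a member most closely were found by the mean absolute difference between the centred group means, a description over 6 groups with no test. The nearest to Tbx20 was the chemokine gene Ccl3 (0.14), the nearest to Hand1 was Ptgs2 (0.08), the nearest to Tnnt2 was Phlda2 (0.07) and the nearest to Tbx5 was Idua (0.03). Myl7 had no such close match, with Plek at 0.31 and the embryonic globin gene Hbb-bh1 at 0.34 as the nearest. Among the members themselves, Hand1 and Hand2 were the closest pair at 0.12, and Myl7 was the furthest from any other, with Hand1 at 0.50.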

How the data were processed

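The deposited values are log2 signals of 33708 array entries, made by the authors with RMA in Affymetrix Expression Console (version not given), per the submitters' processing notes. RMA removes background, equalises the distribution of signals over the arrays and combines the probes of each entry. The values were used as deposited. Of the entries, 23521 carry 1 gene symbol, 1814 several and 8373 none; of several entries for a gene the one with the highest mean was kept, which left 22180 genes.

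A limma model (version 3.58.1, in R 4.3.3) with 6 group means over 16 arrays (lmFit, contrasts.fit, eBayes) was fitted to all genes, with p adjusted by Benjamini-Hochberg within each of 12 contrasts. ± is limma's standard error. Figures used Python 3.11.15 with matplotlib 3.10.9. The fit was tested on simulated data.

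The members and the 11 further gene lists were chosen with earlier results of these data known. Some genes are shared between lists, so the counts of the lists are not separate evidence. From a list, up to 4 called genes with the largest difference are named per comparison. Same-numbered iHC arrays varied together (r from 0.147 to 0.513 after group means were removed, in 6 pairs of groups), so the fit with replicate number as a block is given where it changes a call. The number of arrays limits the precision.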

Additional observations from a re-analysis of the deposited data

Results flagged for a closer look

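The change between the days differed between iHCs and control EBs for 2 of the 10 genes, by a test of the difference itself. For Myl7 the change in Dox+RA iHCs, day 12 minus day 8, exceeded that in control EBs by 3.01 on the log2 scale (adjusted p = 0.0142). The change of Myl7 in Dox iHCs exceeded that in control EBs by 2.45 (adjusted p = 0.0418), a call lost in 14 of 25 alternatives, and the call with Dox+RA iHCs was lost without either of 2 EB arrays. For Myh7 the excess was 1.77 with Dox+RA iHCs (adjusted p = 0.000671) and 1.50 with Dox iHCs (adjusted p = 0.00241). Both treatments were set against the same 4 EB arrays. Within the iHCs the day 12 and day 8 values of Myh7 overlapped in each treatment, while in the control EBs it averaged 4.67 at day 12 and 6.22 at day 8. At day 8 Myh7 already averaged 4.48 in Dox+RA iHCs and 4.49 in Dox iHCs. Myl7 averaged 4.14 in Dox+RA iHCs and 5.22 in Dox iHCs at day 8, against 6.63 in control EBs at day 12. Whether such low signal left room for a fall was not tested.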

How the results depend on the processing

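Of 41 calls on the 10 genes over all comparisons, 36 held under each of 25 alternatives, and 0 changed direction. The counts against control EBs stayed within 1.5 times the reported ones in all of them; Myh6 is not among the 10354 genes left by a filter on dim signal. Control EBs over time gave 1 to 6 members with 1 array left out and 6 without the third Dox iHC replicates, against 3. The difference of differences gave, with Dox+RA iHCs, 5 members in a fit of the groups compared alone, 5 without the third Dox iHC replicates and 1 to 5 with 1 array left out, against 2. With Dox iHCs it gave 1 member in a fit of the groups compared alone, 1 with all entries tested, 1 with a trended and robust spread and 1 to 4 with 1 array left out, against 2. RA at day 8 gave 1 member (Myl7) in a fit of the groups compared alone, 1 with the replicate block and 0 to 1 with 1 array left out, against 0. The replicate block also called Nkx2-5 in control EBs over time (-0.66, adjusted p = 0.0387) and Hand1 in both differences of differences (adjusted p = 0.0276 and 0.0383), and it removed 0 calls. Where a fit holds fewer arrays or groups, the spread of each gene is estimated from fewer samples. Beyond that the cause of the changed calls was not tested. With 2 EB arrays a day, a lone remaining array is assumed to vary like the other groups.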

Other observations

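Smooth muscle genes went both ways in the iHCs, where 18.9% to 22.4% of all genes were called lower and 15.7% to 22.4% higher. Of 9 such genes, 4 fell and 2 rose in Dox+RA iHCs at day 12, 3 fell and 2 rose at day 8, and in Dox iHCs 3 fell and 2 rose at day 12 and 2 fell and 3 rose at day 8. Des, given above with the sarcomere genes, is also in this list. Acta2, the smooth muscle alpha actin that early cardiac muscle also makes, differed by -3.68 in Dox+RA iHCs at day 12 and -4.29 at day 8, and by -3.34 at day 12 and -3.62 at day 8 in Dox iHCs. Lmod1, a leiomodin of smooth muscle thin filaments, was higher by 2.42 at day 12 and 2.61 at day 8 in Dox+RA iHCs.

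Of 7 measured genes of sympathetic and hindbrain neurons, a type in which Hand2 and Tbx20 are also known, 3 rose and 2 fell in Dox+RA iHCs at day 12 and 4 rose and 1 fell at day 8, and in Dox iHCs 3 rose and 1 fell at day 12 and 4 rose and 1 fell at day 8. Isl1, given above as a cardiac factor, is also in this list. Of all genes, 15.7% to 22.4% were called higher and 18.9% to 22.4% lower in these comparisons. The vesicular monoamine transporter gene Slc18a2 was higher by 3.52 in Dox+RA iHCs and by 4.10 in Dox iHCs at day 12. Gata2 differed by -2.07 in Dox+RA iHCs and by -2.30 in Dox iHCs at day 12. Hand2 and Tbx20 themselves were lower in all 4 comparisons.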
